A study of Mus musculus with 2 samples.

Results

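Cholesterol synthesis was described in LSK cells of diabetic mice through 8 of its enzyme genes, Hmgcs1, Idi1, Fdps, Fdft1, Sqle, Lss, Cyp51 and Dhcr7. These genes were chosen by symbol for their place in the pathway, and every array probe whose transcript identifier belongs to one of them was taken. All 8 were found, with 10 probes among them, out of 21360 genes that could be named on the array. LSK cells are bone marrow cells sorted as negative for lineage markers and positive for Sca-1 and c-kit, which include the stem cells of the blood and their first progeny. The nondiabetic group was 1 Agilent 1-colour array of LSK cells from C57BL/6J mice without diabetes. The diabetic group was 1 array of LSK cells from C57BL/6J mice made diabetic with streptozotocin (STZ), a toxin of insulin-producing beta cells. The labels give 3 mice for each array, with no word on when they were pooled, call them female, and state that cDNA was amplified from 8.3 ng of RNA, whereas the methods of the study describe STZ injection in male mice. The labels do not give the age, the STZ dose or the time since injection. With 1 array per group, no difference below was tested, and none has a check against the spread between mice, sorts or amplifications.

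Cholesterol is built from acetyl-CoA in the cytosol and endoplasmic reticulum. The early enzymes make mevalonate and turn it into isoprene units, which are joined into farnesyl diphosphate. That molecule feeds both the sterol branch, by way of squalene and lanosterol, and the isoprenoids used for protein prenylation, ubiquinone and dolichol. The transcription factor SREBP2 is known to raise the enzyme genes together when membranes run short of sterol, and proliferating blood progenitors depend on the pathway for new membrane.

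The 8 genes did not share a direction. By the brightest probe of each gene, diabetic LSK cells had 3 genes (Idi1, Fdps and Fdft1) lower by 2-fold or more, against 10.1% of the 15192 genes with a ratio or a bound, and the second probe of Fdft1 went the other way. None (0) was at least 2-fold higher, a size that 11.0% of those genes reached, and in either direction it was 21.1% of genes and 22.4% of all 37791 probes with a ratio or a bound. At 1.5-fold, 2 genes were higher (Hmgcs1 and Lss, the second by a bound), where the share over all genes was 20.9%, and the same 3 were lower, where it was 19.0%. The median log2 ratio of diabetic over nondiabetic was -0.22 over the 8 genes with Lss at its bound and -0.38 over the 7 measured on both arrays, beside 0.02 over all genes with a ratio or a bound and 0.01 over those measured on both arrays. Among the 7 genes measured on both arrays, the log2 ratios ran from -2.91 to 0.71 with an SD of 1.31 between genes, and the SD over all 13467 genes measured on both arrays was 0.83. The genes that lay lowest by their brightest probe encode the 3 consecutive enzymes from isoprene units to squalene.

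**Figure D1:**
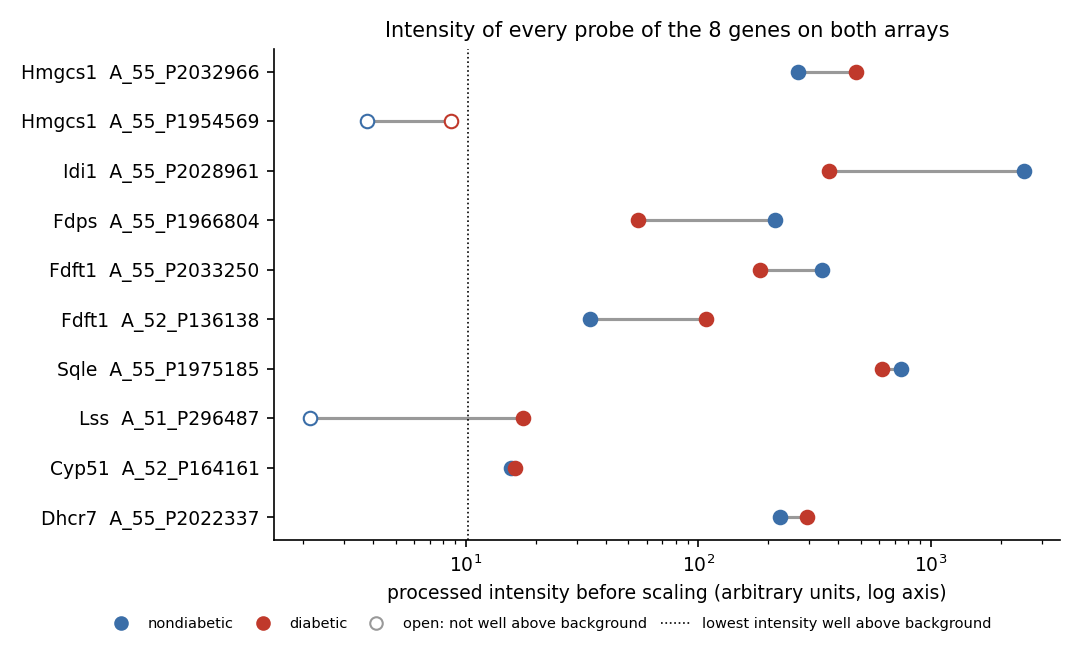
Processed intensity of each of the 10 probes of the 8 genes (log axis, before scaling) on the nondiabetic (blue) and diabetic (red) array, with 1 point per array and no replicate. Open points were not well above background, and the dotted line marks the lowest intensity that was. Idi1 shows the widest step among the probes measured on both arrays, from 2519 to 364, and the probes of Fdft1 step in opposite directions.

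Levels are given as the intensity that the scanner software had corrected for background, in arbitrary units, and can be compared between arrays for 1 probe but not between probes. Each is followed by the error that the software assigned to the spot, since each of the 10 probes was printed once and has no spot replicate. Log2 ratios were taken after each array had been divided by its own 75th percentile, 168 on the nondiabetic and 182 on the diabetic array, so they lie slightly below the ratios of the printed intensities. A probe was measured where the software called its spot well above background. The lowest such intensity was 10.2 on the nondiabetic and 10.1 on the diabetic array, and the negative control spots had medians of 2.35 and 2.32. Of the 10 probes, 8 were measured on both arrays, 1 on the diabetic array only and 1 on neither, and 0 were saturated or marked as an outlier.

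Hmgcs1 encodes the cytosolic HMG-CoA synthase, which acts early in the making of mevalonate. The intensity of its brighter probe (A_55_P2032966) was 269 ± 27.0 in cells without diabetes and 477 ± 47.8 with it. The diabetic array was the higher one, with a log2 ratio of 0.71 (software error 0.20), or 1.63-fold. The second probe (A_55_P1954569) gave 3.76 and 8.66, below the detection call on both arrays, and has no ratio.

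Idi1 encodes isopentenyl diphosphate isomerase, which supplies the primer for the joining of isoprene units. Its only probe (A_55_P2028961) read 2519 ± 252 without diabetes and 364 ± 36.4 with it. This was the widest difference among the 7 genes measured on both arrays, a log2 ratio of -2.91 (software error 0.20), or 7.51-fold lower. The uncorrected brightness of the spot went the same way, 2671 against 431, over local backgrounds of 31 and 33. Of all genes with a ratio, 0.744% (113 genes) lay at least as low. The probe belongs to the brightest of 3 equal groups of genes by signal, in which 2.65% of 4489 genes were at least 2-fold lower. Probes of that group printed 5 times or more (57 of them) had a median SD of 0.06 between the log2 ratios of their spots, and the highest was 0.10.

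The promoters of Hmgcs1 and Idi1, the genes with the highest and the lowest ratio measured on both arrays, are shown because genes of this pathway are known as shared targets of SREBP2. RefSeq promoter windows (GRCm38.p6) were found for 5 of the 8 genes, Hmgcs1, Idi1, Lss, Cyp51 and Dhcr7, with 7 windows in all, and not for Fdps, Fdft1 and Sqle. Both sequences are the 250 bases before the annotated start of transcription on the plus strand, at chr13:119690101-119690350 for Hmgcs1 and chr13:8885356-8885605 for Idi1. Capitals mark matches on either strand to the sterol regulatory element TCACNCCAC, to the CCAAT box bound by NF-Y, and to the GGGCGG box bound by Sp1, none of which overlap here.
Hmgcs1: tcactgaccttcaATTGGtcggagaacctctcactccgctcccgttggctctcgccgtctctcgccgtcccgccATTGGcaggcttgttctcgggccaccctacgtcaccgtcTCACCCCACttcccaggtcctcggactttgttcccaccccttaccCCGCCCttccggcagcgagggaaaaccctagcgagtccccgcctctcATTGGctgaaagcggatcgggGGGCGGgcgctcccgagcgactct
Idi1: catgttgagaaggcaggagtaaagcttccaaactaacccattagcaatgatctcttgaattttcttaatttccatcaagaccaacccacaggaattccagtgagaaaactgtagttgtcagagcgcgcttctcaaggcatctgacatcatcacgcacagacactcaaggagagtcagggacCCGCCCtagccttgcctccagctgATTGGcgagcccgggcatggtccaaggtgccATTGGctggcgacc

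The window of Hmgcs1 held 1 match to TCACNCCAC, whose first base is 137 bases before the start, 3 to CCAAT and 2 to GGGCGG. The window of Idi1 held 0, 2 and 1. Over the 7 windows of the 5 genes, 14.3% (only the 1 window of Hmgcs1) held TCACNCCAC, 71.4% CCAAT and 85.7% GGGCGG. Over all 32851 windows of the same length in the table, these shares were 1.05%, 33.8% and 32.7%. A match is a stretch of letters and not a measured binding site, and where there is none, these letters are only not in this window. Several windows belong to 1 gene, as the 3 of Dhcr7.

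Fdps encodes farnesyl diphosphate synthase, the enzyme at the branch between sterols and other isoprenoids. Its probe (A_55_P1966804) is annotated to 1 of the 2 RefSeq transcripts of the gene, and it read 214 ± 21.6 without and 55.0 ± 6.01 with diabetes. It was 4.22-fold lower in diabetic cells, with a log2 ratio of -2.08 (software error 0.21). With normexp background correction, which adds an offset to every intensity, the log2 ratio was -1.32, past 2-fold but not 4-fold. Of all genes with a ratio, 2.46% lay at least as low and 2.64% were at least 4-fold lower. Fdps belongs to the middle signal group, where 10.8% of genes were lower by 2-fold or more and the median SD between spots was 0.12.

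Fdft1 encodes squalene synthase, the first enzyme used by the sterol branch alone. Without diabetes the brighter probe (A_55_P2033250) read 342 ± 34.2 and with diabetes 184 ± 18.6. The log2 ratio of -1.01 (software error 0.20) lies at the 2-fold limit, and 1519 of the 15192 genes lay at least as low. The second probe (A_52_P136138) carries the same transcript identifier and had 34.1 ± 4.18 and 108 ± 11.1, a log2 ratio of 1.55 (software error 0.23). The probes of Fdft1 therefore went in opposite directions, and the gene has no single direction here. Their gap was 2.56 in log2. Among the 3245 genes with at least 2 probes measured on both arrays, the median gap was 0.66, 5.02% had a gap at least as wide, and 2.34% (76 genes) were like Fdft1 at least 2-fold higher by one probe and 2-fold lower by another. Taking the mean of the probes of each gene moved Fdft1 to 0.27 and the median of the 8 genes to 0.10.

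**Figure D2:**
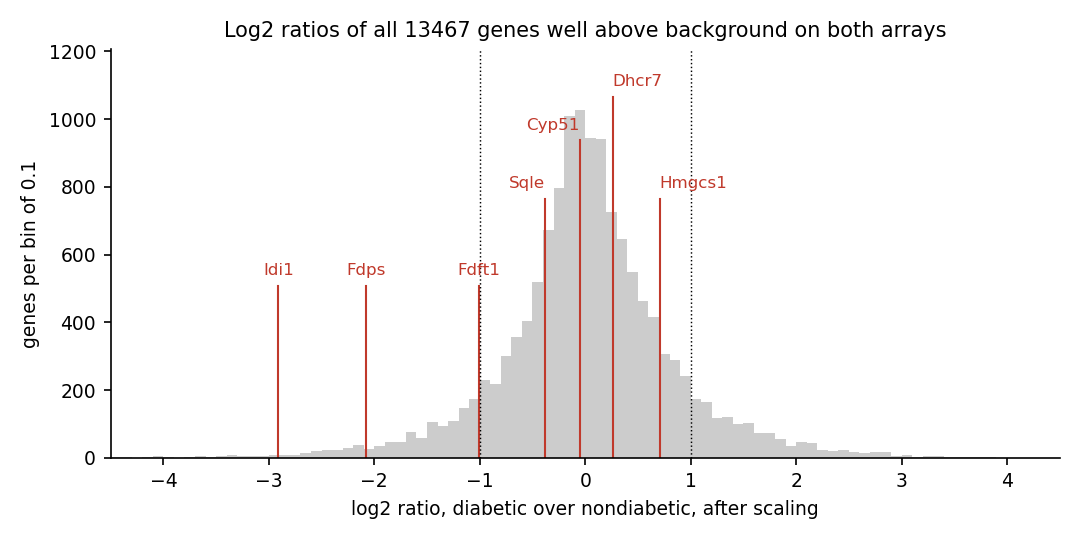
Histogram of the log2 ratio of diabetic over nondiabetic for the brightest probe of each of the 13467 genes well above background on both arrays (values beyond the axis are not drawn), with dotted lines at 2-fold. Red lines mark the 7 of the 8 genes measured on both arrays, with heights that only make room for the names. Idi1 and Fdps lie in the lower tail, Fdft1 at the limit, and Sqle, Cyp51, Dhcr7 and Hmgcs1 within the bulk.

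Of the 8 genes, those acting after squalene and measured on both arrays were within 2-fold. Sqle encodes squalene epoxidase, a rate-limiting enzyme of the sterol branch. Its probe (A_55_P1975185) read 742 ± 74.2 on the nondiabetic and 617 ± 61.7 on the diabetic array. The diabetic array was slightly the lower one, with a log2 ratio of -0.38 (software error 0.20).

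Lss encodes lanosterol synthase, which closes the sterol rings. Its probe (A_51_P296487) read 17.6 ± 2.77 with diabetes and 2.13 without, the latter at the level of the negative controls and not well above background. Set against the lowest intensity well above background on the nondiabetic array, Lss was at least 1.59-fold higher in diabetic cells.

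Cyp51 encodes the demethylase of lanosterol. Its probe (A_52_P164161) was dim on both arrays, at 15.6 ± 2.57 and 16.3 ± 2.60. The log2 ratio of -0.05 was smaller than its software error of 0.33.

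Dhcr7 encodes the reductase that turns 7-dehydrocholesterol into cholesterol. Its probe (A_55_P2022337) read 225 ± 22.6 on the nondiabetic and 293 ± 29.3 on the diabetic array. The diabetic array was slightly the higher one, with a log2 ratio of 0.26 (software error 0.20). In order of log2 ratio, the software errors of neighbours overlapped for Sqle and Cyp51 and for Cyp51 and Dhcr7. Of the 7 genes measured on both arrays, 4 (Hmgcs1, Idi1, Fdps and Fdft1) lay more than 3 software errors from 0, as did 31.6% of all genes measured on both arrays.

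**Figure D3:**
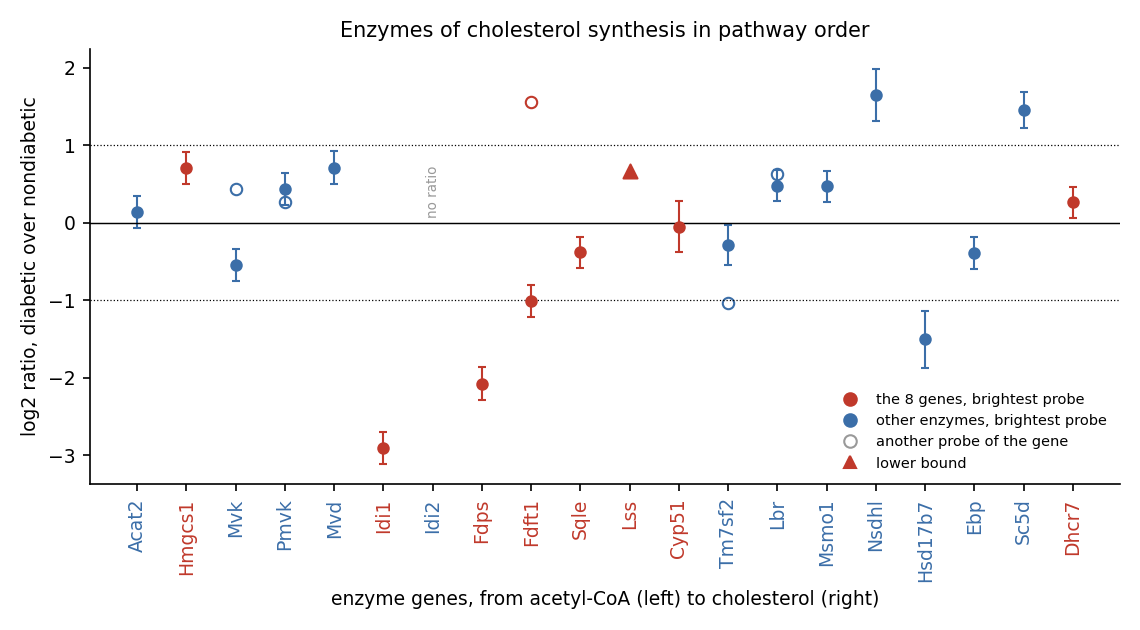
Log2 ratio of diabetic over nondiabetic for the enzyme genes of cholesterol synthesis that are reported here, placed from acetyl-CoA on the left to cholesterol on the right, with bars of 1 software error and dotted lines at 2-fold. Filled points are the brightest probe of a gene, open points other probes measured on both arrays, and the triangle is a lower bound for Lss. Ratios lie on both sides of 0 along the pathway, with Idi1 lowest at -2.91 and Nsdhl highest at 1.65. Nsdhl was close to the detection limit on the nondiabetic array.

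The 14 other enzymes of the pathway were read in the same way. Of the 13 with a ratio, 3 passed 2-fold upwards and 2 downwards, against 11.0% and 10.1% of all genes. The median log2 ratio of the 13 was 0.44. Among the higher ones, Nsdhl and Sc5d, which act on sterol intermediates after Cyp51, had log2 ratios of 1.65 and 1.45. Nsdhl read only 13.6 on the nondiabetic array, close to the detection limit, and its second probe was below the detection call on both arrays. Hsd17b7, which works with Nsdhl, was among the lower ones at -1.50, on an intensity of 10.9 in diabetic cells that is close to the detection limit, and its second probe gave a bound on the same side. Mvd, the enzyme just before Idi1, had a log2 ratio of 0.71 and Msmo1, which acts later than Cyp51, one of 0.47. The Idi1 paralog Idi2 had no probe well above background. Of all 22 enzymes, 11 had a ratio above 0 and 10 below it, with a median of 0.14. Besides Fdft1, the probes of Mvk also differed in sign, which makes 2 of the 5 enzyme genes with several measured probes, against 48.9% of all such genes.

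Regulators of the pathway were described next. Srebf2, which encodes SREBP2, had a log2 ratio of 0.54 by its brighter probe and -0.67 by the other. Insig1, a sterol-responsive inhibitor of SREBP activation, had 0.25 at a low intensity of 23.8 and 30.6. Of the 13 regulator genes, 0 passed 2-fold upwards and 2 downwards, against 11.0% and 10.1% of all genes. Mbtps1, the first protease that cuts SREBPs, was among the latter with a log2 ratio of -1.26, and its second probe gave 0.91.

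Farnesyl diphosphate, the product of Fdps, also feeds the isoprenoid branch. Of its 14 genes by their brightest probe, 5 passed 2-fold upwards (11.0% over all genes) and 0 downwards (10.1%), with a median log2 ratio of 0.23. The 5 were Ggps1 (1.40), which makes geranylgeranyl diphosphate, the prenyltransferase subunits Pggt1b (1.72) and Rabggtb (1.13), Pdss2 (1.94) for the ubiquinone tail, and Fntb, which was measured in diabetic cells only and was at least 5.65-fold higher. Other probes of Ggps1, Rabggtb and Pdss2 gave log2 ratios down to 0.04, 0.00 and -0.30. The second probe of Fntb was below the detection call on both arrays. For genes of this branch within 2-fold by their brightest probe, dimmer probes gave log2 ratios from -1.39 to 1.94. In fatty acid synthesis, the other arm under SREBPs, 1 of 10 genes with a ratio passed 2-fold, the elongase Elovl6 at 1.92. Among the genes of sterol use with a ratio, 1 of 10 passed it, the oxysterol hydroxylase Cyp7b1 at -2.12. The only probe of Cyp7b1 read 65.7 on the nondiabetic and 16.4 on the diabetic array, the latter not far above the detection limit. Over all genes, 21.1% passed 2-fold in either direction.

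**Figure D4:**
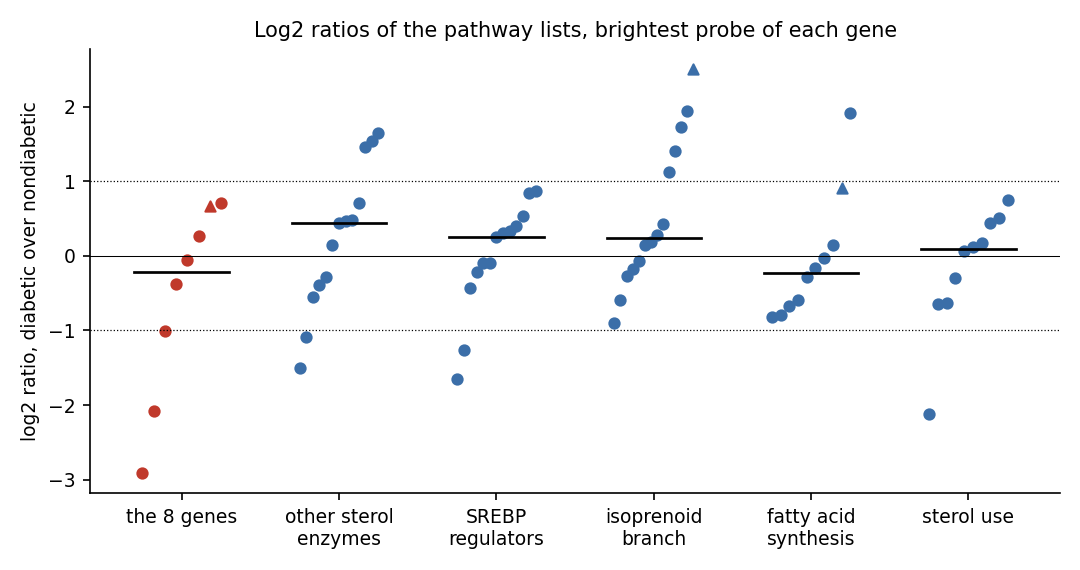
Log2 ratio of diabetic over nondiabetic by list, 1 point per gene by its brightest probe, triangles for bounds, black lines for the median of each list and dotted lines at 2-fold. The 8 genes (red) reach lower than any other list. Their median of -0.22 is close to that of fatty acid synthesis (-0.23), and the other sterol enzymes have one of 0.44.

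Markers of the sorted cells and of other cells were read beside these values. Kit and Ly6a, the genes of the sort, were well above background on both arrays, with log2 ratios of -0.09 and 0.44. Of the other LSK and stem cell genes, Cd34, Flt3 and Cd48 had 0.22, 0.19 and 0.09 by their brightest probe, and Procr had -0.59. Slamf1 was measured in diabetic cells only and was at least 2.59-fold higher. The summed intensity of these 7 genes was 12104 in nondiabetic and 13249 in diabetic cells, mostly from Kit and Cd34. All sums here are of intensities before scaling, and the 75th percentile was 168 on the nondiabetic and 182 on the diabetic array. Genes listed as markers of other cells had summed intensities of 42628 and 41651 over 5 myeloid genes. Over 4 T and NK cell genes the sums were 1230 and 1241, mostly from Cd4. The study does not list the antigens of its lineage panel, so these sums do not tell which cells passed the gate. The myeloid sum rests on 1 bright probe of Itgam (log2 ratio -0.10), and the other probes went both ways. Both other probes of Itgam (-1.12 and -1.30) and the second of Csf1r (-1.17) were over 2-fold lower, Mpo had -0.68, and Adgre1 had 0.94 by its brightest probe and a bound of 1.51 by the other. Sums, which include probes below the detection call, were higher in diabetic cells for 4 erythroid genes (2062 and 5040), led by Hba-a1, for 3 megakaryocyte genes (345 and 616), for 4 B cell genes (65.3 and 155) and for 6 genes of stroma and endothelium (196 and 973), the last through Pecam1, which stem cells also express. The defining markers Ms4a1, Ebf1, Cd8a, Adipoq, Cdh5 and Col1a1 were below the detection call on both arrays by their brightest probe. The part of other cells in the ratios of the 8 genes was not tested. In bulk RNA, fewer cells of a kind and less RNA per cell cannot be told apart.

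**Figure D5:**
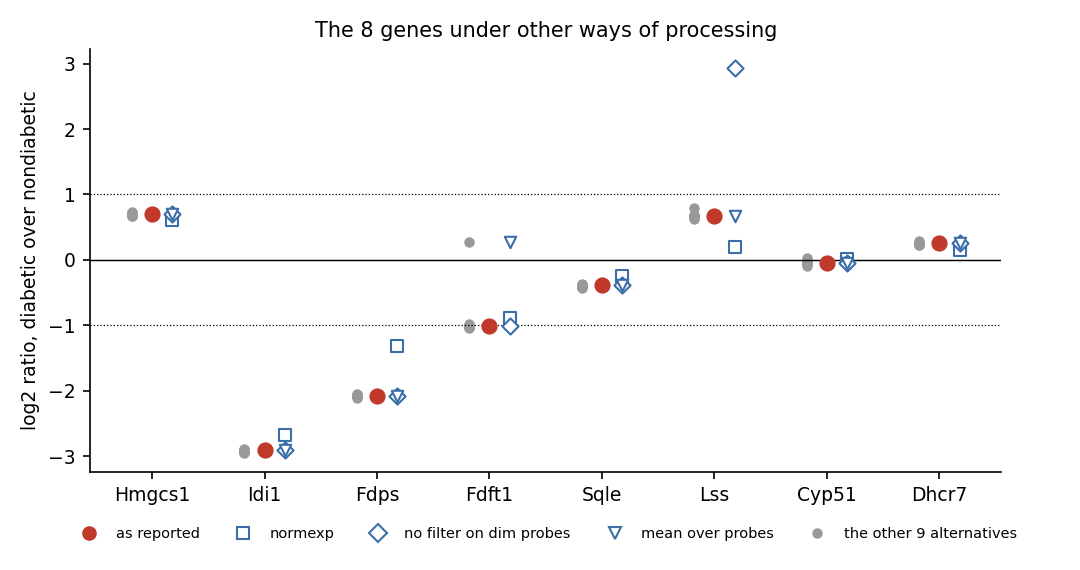
Log2 ratio of each of the 8 genes as reported (red) and under the 12 other ways of processing, of which 3 have their own symbols and 9 are small grey points, with dotted lines at 2-fold. Idi1 and Fdps stay past 2-fold lower under all 12, Fdft1 moves above 0 when probes are averaged, and Lss is 2.93 without a filter on dim probes.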

How the data were processed

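Amplified and Cy3-labelled cDNA of LSK cells was hybridized to 1-colour arrays, 1 per condition, and that number limits the precision. The authors deposited, for each array, the intensities written by Agilent Feature Extraction 11.5.1.1 (background-corrected, not scaled between arrays) and a value table, which equals the processed intensity times 1 factor per array (3.48 and 3.35 in log2).

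Spots flagged as outliers on at least 1 array were dropped. Intensities were taken to log2 minus the 75th percentile of the array, and averaged over the spots of a probe. Transcript identifiers were matched without version to a RefSeq gene table (GRCm38.p6), and 53.7% of the 59305 spots outside controls gained a gene name. The array grid refers to mm9, so probes and genes are given without coordinates, and the promoter windows carry those of GRCm38.p6. A gene was represented by its brightest probe (mean log2 signal), and all probes of the 8 genes are shown. For a probe measured on 1 array, the bound used the higher of its own value and the lowest intensity well above background on the other. The software error of a log2 ratio combines the relative errors of both spots. The named genes are the 8 genes, neighbours of them in the pathway (Mvd, Msmo1, Srebf2 and Insig1), and the genes of the pathway lists past 2-fold. Some genes of the lists are counted in them but are not reported here by name. Mvk, Idi2 and the markers named were singled out after their values were seen. The 8 genes and all lists were chosen with earlier results of these data known. The motifs are known elements of SREBP2 target genes. No test was made. The steps were tested on simulated data. Python 3.11.15 (numpy 2.4.6; pandas 2.3.3; statsmodels 0.14.6; matplotlib 3.10.9) and R 4.3.3 (limma 3.58.1) were used.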

Additional observations from a re-analysis of the deposited data

How the results depend on the processing

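Alternative settings were normexp (offset 50) on the median spot brightness, since the files used here give no mean, quantile normalization, a median-centred log2 ratio, loess, scaling by the 75th percentile of the probes measured on both arrays, no filter on dim probes, only probes measured on both arrays, the mean and the median over the probes of a gene, the authors' table, a floor at the detection limit, and outlier spots kept. Idi1 kept a log2 ratio between -2.95 and -2.68 and Fdps one between -2.12 and -1.32 under all 12, with the upper ends from normexp, which adds its offset to every intensity. Fdft1 was past 2-fold under 8 of the 12 and reversed to 0.27 with the mean or the median over its probes, which also put the median of the 8 genes at 0.10, and the number of other pathway genes at least 2-fold lower at 3 in place of 5. Cyp51 turned to 0.01 under normexp and 0.03 under loess. Hmgcs1, Sqle and Dhcr7 kept their sign under all 12. Under normexp, 1 of the 8 genes was at least 1.5-fold higher, as with only probes measured on both arrays, and 5 and 2 other pathway genes passed 2-fold upwards and downwards, in place of 9 and 5. Over all probes, 4215 were at least 2-fold higher and 4235 lower, bounds included; normexp gave 1243 and 1259, and no filter gave 6482 and 6424. Without the filter 1 of the 8 genes, Lss at 2.93, was at least 2-fold higher.

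No replicate was left out, as each side has 1 array. No paired analysis was possible because the labels give 1 sample per condition. Signal over background limits Lss, Cyp51 and the second probe of Hmgcs1.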
